A study of Mus musculus with 26 samples.

Results

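Cis promoter contacts over 800 kb are pairs of HindIII fragments on the same chromosome, at least 1 of them baited, whose midpoints lie more than 800 kb apart. Baits mostly stand for gene promoters, but 138 of the 19022 baited fragments are listed only as uce, without a gene name. The pairs were taken from the 3 deposited lists of promoter interactions, 1 for each cell state, and each pair was counted once. The wild-type (WT) embryonic stem cell (ESC) list holds 1293 of them among 99706 cis pairs (1.30%), the epiblast stem cell (EpiSC) list 1552 among 86981 (1.78%), and the Nanog-null ESC list 276 among 74585 (0.370%). Together these are 2653 different pairs out of 174253 different fragment pairs in the 3 lists. The members were chosen by distance and, because the lists keep only scored interactions, by the score of the authors' caller, whose lowest listed value is 5. Distance, reads, and score are therefore described without a test.

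The study compared promoter contacts between pluripotent states and after loss of the transcription factor NANOG. Promoter Capture Hi-C (PCHi-C) joins restriction fragments that lie close together in fixed nuclei and enriches the joined products for promoters with RNA baits. WT ESCs were sequenced in 5 lanes, EpiSCs in 2, and Nanog-null ESCs in 5, and each state has 1 combined list, so that no value of a list has a replicate error. RNA-seq covers 3 WT ESC, 4 EpiSC, and 3 Nanog-null ESC samples, of which the deposited table gives 1 median RPKM (reads scaled to the length of the gene and the size of the library) per gene and state. By the growth protocol, the WT line was E14Tg2a (129P2/OlaHsd). The Nanog-null line RCNβH-B(t) derives from E14Tg2a, was expanded in hygromycin, and is a single line, so that loss of Nanog and other differences of that line cannot be told apart. Both ESC lines grew on gelatin with serum and LIF. EpiSCs came from 129S2 embryos and grew on fibronectin in N2B27 with Activin A and bFGF, so that cell state, line, and culture cannot be told apart. The strain label of all these samples reads C57BL/6, which differs from the strains of the protocol.

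The RNA table gives *Nanog* a median of 418 RPKM in WT ESCs, 361 in EpiSCs, and 22.3 in the Nanog-null ESCs. The targeted gene is thus lowest in the state labelled as its knockout, although its transcript is not at 0. The list reads add up to 2177284 in WT ESCs, 1651286 in EpiSCs, and 1438555 in the Nanog-null line. These sums cover called interactions only, so that the sequencing depth of each state is unknown. A pair missing from a list can have been too weakly covered to reach the score there.

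Mammalian promoters are mostly joined to enhancers and to other promoters within the same topological domain, and contacts become rarer with linear distance. Promoters of developmental regulators in ESCs often lie in CG-rich DNA bound by Polycomb complexes, and such regions are known to meet over long distances. Large tandem gene families, such as those of histones, olfactory receptors, and keratins, lie in clusters that can be split over a chromosome arm.

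The promoters of 6 linked genes are printed to give the letters behind the contacts, and the genes were picked after their values were seen. Each is the stretch of 250 bases before the gene's start in GRCm38, from RefSeq, read 5′ to 3′ on the gene's strand, with every CG in capitals. *Mnx1*, a homeobox gene of motor neurons and pancreas, starts inside a fragment joined to *Shh* in all 3 lists, and its window is chr5:29478471-29478720 on the minus strand. *Foxa1*, a forkhead factor of endoderm, is joined to *Pax9*, and its window is chr12:57546112-57546361 on the minus strand. *Hoxd3*, a homeobox gene of the body axis, has its window at chr2:74711743-74711992 on the plus strand. *Igfbp3*, which encodes a binding protein of insulin-like growth factors, has its window at chr11:7213924-7214173 on the minus strand. *Abt1*, an activator of basal transcription, has its window at chr13:23423867-23424116 on the minus strand, and *Btn2a2*, a butyrophilin that acts on T cells, at chr13:23488858-23489107 on the minus strand.
Mnx1: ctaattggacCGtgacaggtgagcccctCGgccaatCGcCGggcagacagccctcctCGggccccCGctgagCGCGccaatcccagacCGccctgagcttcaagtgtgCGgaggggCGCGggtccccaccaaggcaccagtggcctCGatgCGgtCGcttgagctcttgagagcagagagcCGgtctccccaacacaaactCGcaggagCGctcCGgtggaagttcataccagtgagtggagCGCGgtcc
Foxa1: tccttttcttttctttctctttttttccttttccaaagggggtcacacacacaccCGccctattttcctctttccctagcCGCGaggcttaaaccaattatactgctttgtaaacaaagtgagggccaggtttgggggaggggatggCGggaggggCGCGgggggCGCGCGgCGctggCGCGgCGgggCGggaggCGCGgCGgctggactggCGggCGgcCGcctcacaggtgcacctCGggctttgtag
Hoxd3: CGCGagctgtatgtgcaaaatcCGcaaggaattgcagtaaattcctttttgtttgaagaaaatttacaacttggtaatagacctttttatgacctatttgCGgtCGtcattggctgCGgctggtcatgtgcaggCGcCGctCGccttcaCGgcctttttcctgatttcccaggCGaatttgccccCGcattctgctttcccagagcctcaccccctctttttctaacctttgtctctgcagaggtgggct
Igfbp3: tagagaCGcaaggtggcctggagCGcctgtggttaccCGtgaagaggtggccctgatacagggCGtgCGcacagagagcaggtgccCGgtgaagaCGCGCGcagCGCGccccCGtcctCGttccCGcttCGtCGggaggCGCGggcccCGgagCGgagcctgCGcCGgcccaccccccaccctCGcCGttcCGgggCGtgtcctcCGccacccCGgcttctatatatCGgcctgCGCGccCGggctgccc
Abt1: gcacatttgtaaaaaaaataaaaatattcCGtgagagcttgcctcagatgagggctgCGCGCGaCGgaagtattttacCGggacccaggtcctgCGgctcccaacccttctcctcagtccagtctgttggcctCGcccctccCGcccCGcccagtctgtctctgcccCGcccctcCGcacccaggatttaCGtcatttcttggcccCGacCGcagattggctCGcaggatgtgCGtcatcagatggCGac
Btn2a2: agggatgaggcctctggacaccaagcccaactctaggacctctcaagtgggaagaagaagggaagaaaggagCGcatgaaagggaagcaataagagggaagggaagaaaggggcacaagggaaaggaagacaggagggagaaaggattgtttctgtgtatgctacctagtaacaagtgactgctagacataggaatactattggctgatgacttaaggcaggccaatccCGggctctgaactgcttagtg
These windows hold 21 CG in *Mnx1*, 21 in *Foxa1*, 12 in *Hoxd3*, 32 in *Igfbp3*, 18 in *Abt1*, and 2 in *Btn2a2*. Over the 32851 windows of the same length in the RefSeq table the median was 6 CG, and 92.1% held at least 1. Of these 6, only *Btn2a2* lay below that median. A comparison of all linked promoters with the others was void, because only 58.5% of the 1413 linked genes and 57.3% of the 18833 baited genes had an entry under their symbol.

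The share of cis pairs beyond 800 kb was lowest in the Nanog-null ESC list. It was 1.30% in WT ESCs (Wilson 95% interval 1.23% to 1.37%), 1.78% in EpiSCs (1.70% to 1.87%), and 0.370% in Nanog-null ESCs (0.329% to 0.416%). These intervals, and all that follow, cover counting error only and say nothing of the spread between cultures. They also treat each pair or gene as independent, although neighboring fragments often repeated the same contact. The Nanog-null list had a shorter reach below 800 kb as well. Its cis pairs had a median distance of 74.1 kb, against 139 kb in WT ESCs and 141 kb in EpiSCs, and 19.6% of them spanned more than 200 kb, against 35.2% and 35.7%. Pairs within 50 kb made up 40.8% of its cis pairs, 24.2% in WT ESCs, and 22.4% in EpiSCs. Its share was also the lowest over 2 Mb, with 0.0375% against 0.119% and 0.0931%, but over 5 Mb it was 0.0174%, between 0.0522% in WT ESCs and 0.0161% in EpiSCs. The part of sequencing depth in these differences was not tested.

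**Figure D1:**
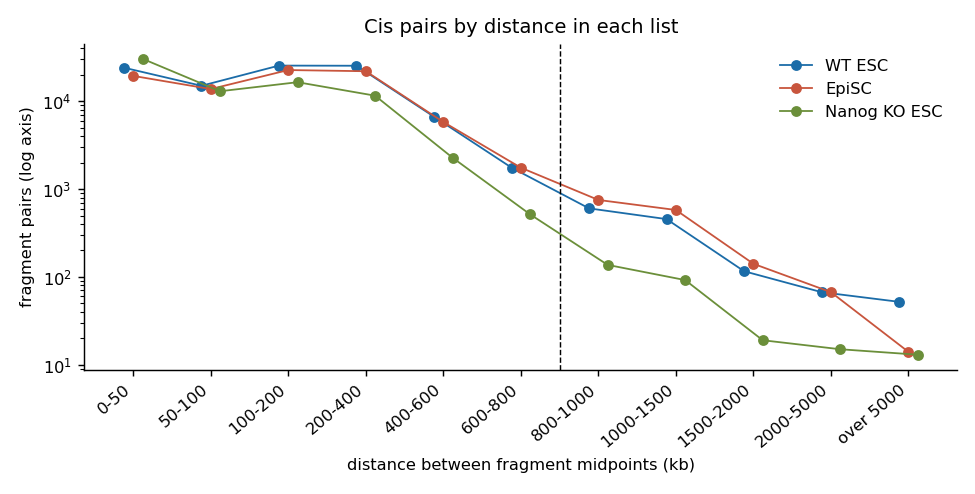
Number of cis fragment pairs (log axis) in bins of the distance between fragment midpoints (kb) in each of the 3 lists, with a dashed line at 800 kb. The Nanog KO ESC list holds 30462 pairs within 50 kb, more than the other lists, and 137 pairs from 800 to 1000 kb, against 603 in WT ESC and 752 in EpiSC.

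Most of these contacts lay not far beyond the threshold. Their median distance was 1.02 Mb in WT ESCs, 1.01 Mb in EpiSCs, and 1.00 Mb in Nanog-null ESCs, and 90.8%, 94.8%, and 89.9% of them spanned less than 2 Mb. The nearest pair inside the rule measured 800.336 kb in WT ESCs, 800.361 kb in EpiSCs, and 800.025 kb in Nanog-null ESCs, and the nearest outside it 799.095, 799.843, and 799.095 kb. In the last 100 kb below the threshold the lists hold 634, 663, and 171 pairs, and in the first 100 kb above it 427, 516, and 104, with medians of 6, 6, and 5 reads on both sides. The counts therefore fell smoothly over the threshold, with no break in reads. Between the ends of a contact lay a median of 7 other baited fragments in WT ESCs, 4 in EpiSCs, and 6 in the Nanog-null line, so that these contacts skip several promoters.

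Read support was low. Summed over the pairs beyond 800 kb, reads came to 7722 for WT ESCs (0.355% of the list), 9171 for EpiSCs (0.555%), and 1682 for Nanog-null ESCs (0.117%). Their median was 5 reads in each list, against 13, 11, and 11 for cis pairs up to 800 kb. Pairs with 10 or more reads numbered 85, 108, and 14, and pairs with 3 or fewer 127, 131, and 37. The score, which weighs the reads against those usual at the same distance, had medians of 6.40, 6.45, and 6.31 for the long pairs and 6.51, 6.54, and 6.66 for the others. Few reads thus suffice for a score at these distances, and 38.7%, 37.7%, and 40.9% of the long pairs scored under 6.

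Contacts between baited fragments on both ends, mostly promoter to promoter, were 377 of the 1293 pairs in WT ESCs (29.2%, 26.7% to 31.7%), beside 23.3% of all cis pairs. In Nanog-null ESCs they were 79 of 276 (28.6%, 23.6% to 34.2%), beside 22.1%. In EpiSCs they were 282 of 1552 (18.2%, 16.3% to 20.2%), beside 18.4%. Among cis pairs up to 800 kb alone the shares were 23.2% for WT ESCs and 18.4% for EpiSCs, and for Nanog-null ESCs 16371 of 74309 pairs were baited at both ends. With the 800 kb threshold, the share baited at both ends was thus higher for the long than for the shorter pairs in both ESC lists. In EpiSCs the interval spans the share of the shorter pairs. Neighboring pairs are not independent, so that these intervals do not decide whether the shares differ. The WT ESC share rose to 33.9% at a score of at least 7, at which the shorter pairs were not counted. With a threshold of 1 Mb the Nanog-null share was 25.2% (18.7% to 33.0%), an interval that spans the share of the pairs up to 800 kb. These differences between lists were not tested.

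Most long contacts stood in a single list. Of the 2653 pairs, 2270 were in 1 list, 298 in 2, and 85 in all 3, so that 14.4% recurred. In another list were 357 of the 1293 WT ESC pairs (27.6%, 25.2% to 30.1%), beside 56.6% of all cis pairs of that list. The EpiSC list shared 332 of 1552 pairs (21.4%, 19.4% to 23.5%), beside 53.2%, and the Nanog-null list 162 of 276 (58.7%, 52.8% to 64.3%), beside 65.1%. Pairs of 400 to 800 kb had shares of 33.7%, 33.2%, and 59.3% in WT ESCs, EpiSCs, and Nanog-null ESCs, nearer to those of the long pairs. The 306 pairs common to WT ESCs and EpiSCs are 23.7% of the first list and 19.7% of the second, and the 136 common to WT and Nanog-null ESCs are 10.5% and 49.3%. Because the Nanog-null list is the smallest, its share in the others is bounded less by list size than theirs in it.

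**Figure D2:**
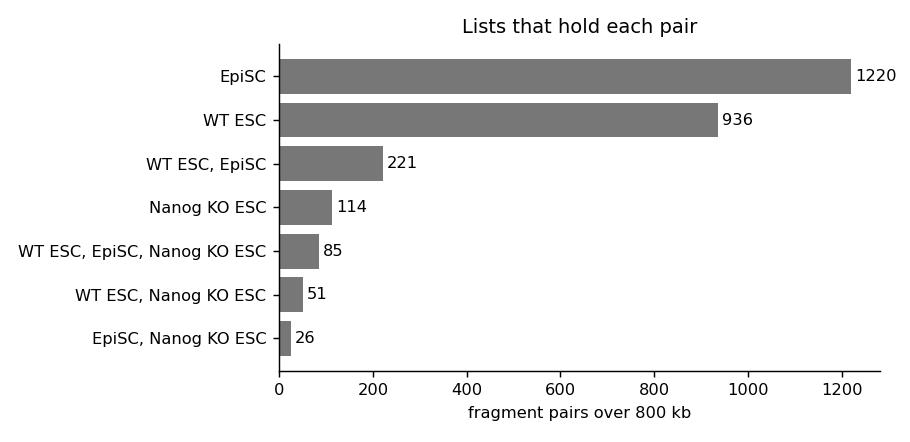
Number of fragment pairs over 800 kb held by each combination of the 3 lists. The EpiSC list alone holds 1220, the WT ESC list alone 936, the Nanog KO ESC list alone 114, and all 3 lists together 85.

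Recurrence went with read number. Of WT ESC pairs with 10 or more reads, 82.4% were in another list, against 7.87% of those with 3 or fewer. In EpiSCs these shares were 59.3% and 8.40%, and in Nanog-null ESCs 100% of 14 pairs and 37.8% of 37. Of pairs up to 800 kb with 10 or more reads, 68.9%, 65.1%, and 68.5% were in another list in WT ESCs, EpiSCs, and Nanog-null ESCs. At 10 or more reads the share was thus higher for the long pairs in both ESC lists. In EpiSCs the interval of the long pairs (49.8% to 68.1%) spans the share of the shorter ones. Pairs found in all 3 lists had medians of 8 reads in WT ESCs, 7 reads in EpiSCs, and 6 in the Nanog-null line, against 5, 5, and 4 for those in 1 list. Matching by exact fragment is strict. When both ends could lie within 20 kb of those of a listed pair, the shares of the long pairs in another list became 59.0%, 56.3%, and 79.7%. The shorter pairs were not counted by this looser rule. These shares therefore cannot be set beside those of all cis pairs, which are by exact fragment.

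The 10 pairs with the highest lowest score over all 3 lists joined a few places. The fragment named *1810030J14Rik*, which carries the start of *Mptx1* in the GENCODE annotation (chr1:174329641-174330579), was joined to the fragment with the start of *Mptx2* (chr1:173277712-173278546) by 31 reads in WT ESCs, 30 reads in EpiSCs, and 33 in the Nanog-null line. Both genes encode mucosal pentraxins. Next to it, an unbaited fragment over an exon of *Mptx2* (chr1:173277357-173277711) gave 47, 44, and 46 reads, the highest score in WT ESCs with 114.68. Unbaited fragments at chr1:173278649-173286541 and chr1:173273845-173277356 gave 44, 29, and 46 reads and 36, 32, and 21 reads. The 4 pairs span 1.05 Mb and were listed in each state, though their reads differ between states, as in 36 against 21 and 29 against 46 within a pair. The pair with the most reads in all 3 lists joined *Defb15*, a beta-defensin of innate immunity (chr8:21931937-21934073), to an unbaited fragment in an intron of *Defb34* (chr8:19124472-19125933) over 2.81 Mb, with 74, 51, and 80 reads. It also had the highest score in EpiSCs, 216.71, and in Nanog-null ESCs, 360.02, but 30.64 in WT ESCs.

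*Rimkla*, which encodes a ligase of the neuronal peptide N-acetylaspartylglutamate (chr4:119490833-119501518), was joined over 3.36 Mb to an unbaited fragment with an exon of *Cap1* (chr4:122859856-122861316) by 43 reads in WT ESCs, 25 reads in EpiSCs, and 62 in the Nanog-null line. *Bbs4*, a subunit of the ciliary BBSome (chr9:59353417-59353831), was joined over 3.34 Mb to a fragment with the start of *4930563M21Rik* (chr9:56007731-56018322) by 27, 33, and 19 reads. A fragment with the start of *Gm17206* (chr15:83103175-83107422) was joined over 78.3 Mb to a fragment without a protein-coding gene (chr15:4852106-4852903), by only 4, 5, and 5 reads. These 3 contacts far exceed the median distance and yet were listed in each state.

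The other 2 of these 10 pairs joined developmental regulators. *Shh*, which encodes a secreted morphogen (chr5:28463005-28467167), was joined to *Mnx1* (chr5:29470681-29478820) over 1.01 Mb by 27 reads in WT ESCs, 19 reads in EpiSCs, and 17 in the Nanog-null line. The fragment of *Shh* holds an exon of that gene and not its start. *Pax9*, a paired-box factor of tooth and pharyngeal pouch (chr12:56691719-56695370), was joined to *Foxa1* (chr12:57540076-57547561) over 0.850 Mb by 15, 8, and 9 reads. Of the shared pairs with lower scores, *Bcl6*, a repressor of germinal center B cells, was joined over 1.08 Mb to a fragment at chr16:25064054-25067170 by 13, 22, and 9 reads. *Bcl6* was chosen after its values were seen.

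**Figure D3:**
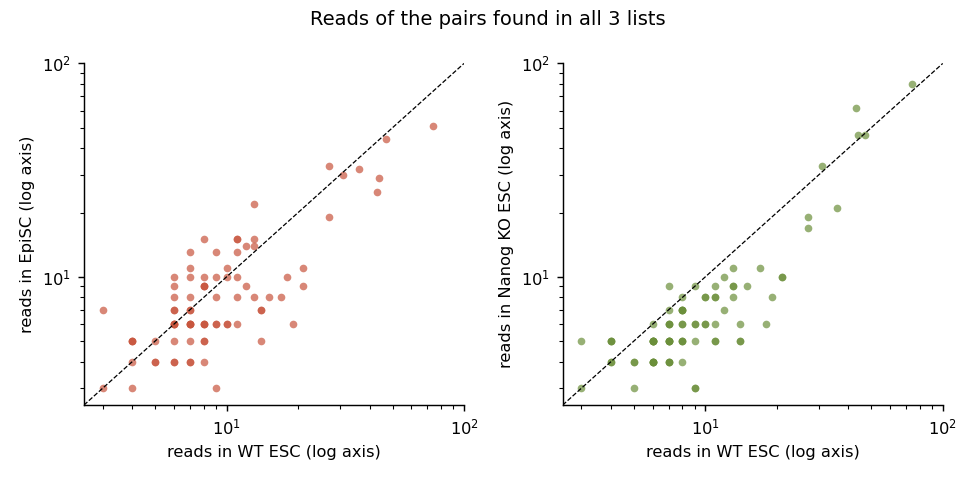
Reads of the 85 pairs over 800 kb found in all 3 lists, in WT ESC (horizontal, log axis) against EpiSC (left) and Nanog KO ESC (right), each point 1 pair and the dashed line equal reads. The pair of Defb15 lies at the upper end with 74, 51, and 80 reads.

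Neighboring fragments often repeated the same contact. When pairs with both ends within 100 kb of each other were joined, a step chosen after seeing the data, the 2653 pairs fell into 826 region pairs, of which 508 consisted of 1 fragment pair. The 10 with the most pairs hold 568 fragment pairs (21.4%). By region, 253 of the 826 (30.6%) were in 2 or 3 lists and 81 in all 3. Among the region pairs of WT ESCs 48.9% were also in another list, of EpiSCs 43.9%, and of Nanog-null ESCs 80.8%. Shorter pairs were not joined in this way, so that no share over all cis pairs stands beside these values.

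The counts that follow are of all fragment pairs between a pair of regions, those of genes not named and of unbaited fragments included. The region pair with the most fragment pairs, 175, joined parts of the histone gene cluster on chromosome 13 (chr13:21715488-22043145 and chr13:23297657-23591557). It includes *Zfp184*, *Hist1h4i*, *Abt1*, and *Btn2a2*, and it held 113 pairs in WT ESCs, 95 in EpiSCs, and 13 in the Nanog-null line. The next ran from the region of *Igfbp3* and *Igfbp1* to a region without a baited fragment (chr11:8125725-8408748), with 31, 44, and 10 pairs. On chromosome 7, a region with *Oscar*, *Cnot3*, a subunit of the CCR4-NOT deadenylase, and *Ndufa3* was joined to one with *Ppp1r12c*, a regulator of myosin phosphatase, *Tnni3*, and *Tnnt1* by 37, 25, and 11 pairs. The region of the *Hoxa* cluster met one at chr6:51167210-51213428 through 7 pairs in WT ESCs, 44 in EpiSCs, and 1 in the Nanog-null line. Regions with the keratins of chromosome 11, and other baited genes, held 16, 37, and 6 pairs, and regions with olfactory receptors on the same chromosome 34, 16, and 2. The region of *Pdzk1ip1*, *Foxd2*, *Foxe3*, and *Tal1*, the last 3 regulators of mesoderm, lens, and blood, was joined to that of *Dmbx1*, a homeobox gene of the brain, by 30, 10, and 7 pairs. The region of *Shh* and that of *Mnx1* were joined by 25, 26, and 8 pairs. Of these 8 region pairs, those of *Hoxa*, *Igfbp3*, the keratins, and *Shh* have more fragment pairs in EpiSCs than in WT ESCs, and the other 4 have fewer.

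Some region pairs were held mostly by 1 state. The region of *Rasgrf1*, a guanine nucleotide exchange factor, met that of *Zic1* and *Zic4*, zinc finger genes of the neural tube, through 10 pairs in WT ESCs, 0 in EpiSCs, and 1 in the Nanog-null line. The region of *Pax9* and *Nkx2-1*, a homeobox gene of lung and thyroid, met that of *Foxa1* through 19, 5, and 2 pairs. In the other direction, the region of *Ccdc85a* had 0, 10, and 0 pairs with an unbaited region, and the region of the aldehyde oxidase genes *Aox4* and *Aox3l1* had 5, 26, and 0 with that of *SNORA17.312* and *9430016H08Rik* (chr1:57404526-57440028). These region pairs were chosen after their values were seen.

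Contacts were unevenly spread over promoters. In WT ESCs 882 baited fragments had a long contact, 5.20% of the 16976 with a cis pair, and 610 of them had 1. In EpiSCs these numbers were 853, 5.29%, and 540, and in Nanog-null ESCs 249, 1.76%, and 197. The 10 fragments with the most contacts took part in 12.8%, 11.4%, and 21.0% of the long pairs of WT ESCs, EpiSCs, and Nanog-null ESCs. Over all lists 1427 baited fragments had a long contact and 134 had one in each list. A small number of promoters thus held many of the contacts.

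In WT ESCs *Abt1* came first with 33 long pairs, followed by *Btn2a2* with 20, *Cadm3*, a neuronal cell adhesion molecule, with 18, *Zfp184*, a zinc finger gene, with 18, and *Igfbp3* with 17. In EpiSCs the fragment named *AC132606.1*, over an exon of the chromatin remodeler gene *Smarca5*, had 25, *Igfbp3* 23, *Abt1* 21, *Shh* 18, and *Igfbp1*, also a binding protein of insulin-like growth factors, 17. In Nanog-null ESCs the fragment of *1810030J14Rik* had 8, *Igfbp3* and *Abt1* 7 each, and *Bhlhe22*, a neuronal basic helix-loop-helix factor, 5. *Igfbp3* and *Abt1* were among the first 5 in all 3 lists. *AC132606.1* had 6 in WT ESCs and 0 in Nanog-null ESCs, and *Zfp184* 3 in EpiSCs and 1 in Nanog-null ESCs. For *1810030J14Rik* every cis pair was a long one, 13 of 13 in WT ESCs, 9 of 9 in EpiSCs, and 8 of 8 in the Nanog-null line.

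By chromosome, the share of cis pairs beyond 800 kb was highest on chromosome 13, with 5.75% in WT ESCs, 6.12% in EpiSCs, and 0.955% in the Nanog-null ESCs. Chromosome 17 had 0.129%, 0.486%, and 0 of 4470 pairs. The histone region accounts for 113 of the 188 long pairs of chromosome 13 in WT ESCs and for 95 of the 199 in EpiSCs.

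Of the pairs found in a single list, the highest scores in WT ESCs belonged to *6030429G01Rik*, whose fragment carries the start of *Dnaaf3*, a dynein assembly factor, over 90.7 Mb with 5 reads, to *Ddx27*, an RNA helicase, over 106 Mb with 5 reads, and to *Foxd2*, joined to *3010003L10Rik* over 4.93 Mb with 8 reads. In EpiSCs *Sox4*, a transcription factor of progenitor cells, was joined by 18 reads over 0.873 Mb to a fragment in an intron of *Cdkal1* (chr13:29826416-29826618). *AC132606.1* followed, joined by 11 and 10 reads to fragments with an exon of *Otud4*, a deubiquitinase, over 1.05 Mb. In Nanog-null ESCs these were *Eya2*, a phosphatase and transcriptional coactivator, over 8.51 Mb with 5 reads, *Dlx6os1*, a noncoding RNA beside *Dlx5* and *Dlx6*, over 0.863 Mb with 7 reads, and *Oxt*, the oxytocin gene, over 23.5 Mb with 4 reads. Pairs count as single here by exact fragment. *Foxd2* was also joined in EpiSCs, by 6 reads, to a fragment near that of *3010003L10Rik* (chr4:109983733-109987160). The far fragment of *Oxt* was joined in WT ESCs to the nearby *AL731707.1* by 6 reads and *Ptpra* by 3 reads. The leading EpiSC pairs thus stood at about 1 Mb, and most of the leading ESC pairs spanned several megabases on few reads.

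Pairs over 5 Mb numbered 52 in WT ESCs (4.02% of the long pairs), 14 in EpiSCs (0.902%), and 13 in the Nanog-null line (4.71%), or 62 different ones, of which 14 were in 2 or 3 lists. When those within 1 Mb were joined, again a choice made after seeing the data, they formed 32 groups. The first joined chr1:3027393-4530090 to chr1:88211442-88284612, with 13 pairs in WT ESCs, 3 in EpiSCs, and 0 in the Nanog-null line, none with more than 4 reads. It involves *Hjurp*, a chaperone of the centromeric histone, *Ugt1a1*, a glucuronosyltransferase, and *Xkr4*. The second joined the *Hoxa* cluster and *Evx1* to a region at chr6:83701043-83722110 over 31.5 Mb, with 7, 0, and 1 pairs. That region holds the starts of the homeobox gene *Vax2* and of its antisense gene. The third, with 5, 1, and 1 pairs, joined genes of small nuclear and nucleolar RNAs over 14.2 Mb (chr11:87426056-87475717 and chr11:101657300-101661361). The longest contact, 168 Mb, joined a fragment in an intron of *Xkr4* (chr1:3454660-3458184) to *Cd244*, a receptor of natural killer cells, with 9 reads in WT ESCs and 4 in EpiSCs. The same fragment was joined to *Itln1*, a lectin gene, with 4 reads in WT ESCs and 3 in Nanog-null ESCs.

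Among gene families, homeobox genes held long contacts often. The list was made by symbol and takes in the paired-box genes, of which *Pax9*, with 9, 5, and 2 long pairs in WT ESCs, EpiSCs, and Nanog-null ESCs, has no homeobox. Of 166 homeobox genes with a cis pair in WT ESCs 33 had one over 800 kb (19.9%, 14.5% to 26.6%), of 151 in EpiSCs 25 (16.6%, 11.5% to 23.3%), and of 145 in Nanog-null ESCs 12 (8.28%, 4.80% to 13.9%). Over all baited genes the shares were 5.19%, 5.28%, and 1.78%. Counted by pairs, a homeobox gene stood at a baited end of 83 long pairs in WT ESCs (6.42%, 5.21% to 7.89%), beside 1.76% of all cis pairs. In EpiSCs it was 92 (5.93%, 4.86% to 7.22%), beside 1.72%, and in Nanog-null ESCs 25 (9.06%, 6.21% to 13.0%), beside 1.78%. By the symbols of the lists, 2, 1, and 1 of these pairs had a homeobox gene at both ends. This count leaves out homeobox genes on fragments listed under another name. The fragment named *Gm16764* carries the start of the homeobox gene *Nkx1-2*, and was joined to *Hmx2* by 19, 6, and 8 reads. Outside the *Hox* clusters the genes with many contacts included *Mnx1* with 13, 15, and 2 in WT ESCs, EpiSCs, and Nanog-null ESCs and *Dlx5*, a factor of bone and forebrain, with 5, 9, and 4. Within the *Hox* clusters, which pattern the body axis, 7 of 31 genes had a long contact in WT ESCs, 10 of 31 in EpiSCs, and 1 of 31 in the Nanog-null line. By pairs, 1.59%, 6.31%, and 0.179% of the cis pairs of the *Hox* clusters were over 800 kb, against 1.29%, 1.77%, and 0.371% for all baited genes. By these symbols the *Hox* share was thus close to that of all genes in WT ESCs and, on 1 of 559 pairs, below it in Nanog-null ESCs. *Hox* fragments listed under another name were not counted, such as *Mir196b* with the start of *Hoxa9* and *Hoxa11as* with that of *Hoxa11*. The *Hox* share with such fragments included is therefore not known. *Hoxa6* had 3, 6, and 0, *Hoxa3* 1, 7, and 0, and *Hoxd3* 2, 5, and 1.

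Other families of developmental transcription factors also had higher shares than all baited genes in WT ESCs, though most are small. Forkhead genes reached 8 of 34 in WT ESCs (23.5%), 6 of 29 in EpiSCs (20.7%), and 5 of 30 in the Nanog-null line (16.7%). *Foxa1* had 10, 2, and 1 pairs, *Foxd2* 9, 3, and 1, and *Foxl2*, a factor of the ovary, 3, 0, and 3. T-box genes gave 5 of 13, 2 of 13, and 1 of 12, with *Tbx18* at 3, 1, and 0 pairs, *Tbx3* at 1, 1, and 2, and *Tbx2* at 2, 0, and 0. Sox genes gave 4 of 16, 3 of 15, and 2 of 10, led by *Sox6* with 5, 9, and 1 and *Sox4* with 1, 6, and 0, and then *Sox14* with 1, 0, and 2 and *Sox2* with 0, 3, and 0. Neural and related basic helix-loop-helix genes gave 4 of 20, 3 of 21, and 2 of 19, with *Bhlhe22* at 9, 12, and 5, *Neurog2*, a proneural factor, at 4, 1, and 3, and *Tal1* at 7, 0, and 0. None of the 5 Gata genes had a long pair in any list, and with so few genes the upper bound of the interval is 43.4%.

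Clustered families also held long contacts. Histone genes, which package newly made DNA, had long contacts for 12 of 30 genes in WT ESCs (40%, 24.6% to 57.7%), 12 of 30 in EpiSCs (40%), and 6 of 28 in the Nanog-null line (21.4%). *Hist1h4h* had 9, 13, and 0 pairs, *Hist1h4i* 8, 12, and 2, and *Hist1h2ae* 7, 10, and 1. Of the pairs with a histone gene, 9 of 32, 12 of 46, and 3 of 4 had one at both ends. Several of these hold identical unmasked sequence at both ends, as given below, and its part in their reads was not tested. Olfactory receptor genes, which are used in sensory neurons, had them for 71 of 574 genes in WT ESCs (12.4%), 37 of 434 in EpiSCs (8.53%), and 9 of 276 in the Nanog-null line (3.26%), with *Olfr633* at 7, 6, and 0 pairs, *Olfr412* at 12, 0, and 0, and *Olfr632* at 4, 4, and 1. Vomeronasal receptors, which sense pheromones, gave 8 of 55, 3 of 33, and 0 of 18, with *Vmn1r195* and *Vmn1r202* at 2 pairs each in WT ESCs and *Vmn1r191* at 1, 1, and 0. Keratins, the filament proteins of epithelia, gave 11 of 79, 12 of 72, and 5 of 65, with *Krt28* at 3, 8, and 1, *Krt42* at 2, 5, and 1, and *Krt26* at 3, 2, and 1. Defensins gave 6 of 31, 3 of 27, and 2 of 28, with *Defb13* at 1, 1, and 2, *Defb15* at 1, 1, and 1, and *Defb1* at 3, 0, and 0. By genes, each of these 5 families exceeded the share of all baited genes in WT ESCs and in EpiSCs. By pairs, keratins stood at 0.928% of the long pairs of WT ESCs, below their 1.55% of all cis pairs. In Nanog-null ESCs 0.340% of their cis pairs were over 800 kb, against 0.371% for all genes. In EpiSCs they stood at 1.68% of the long pairs, above their 1.02% of all cis pairs. The intervals of the smaller families are wide and no difference was tested.

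**Figure D4:**
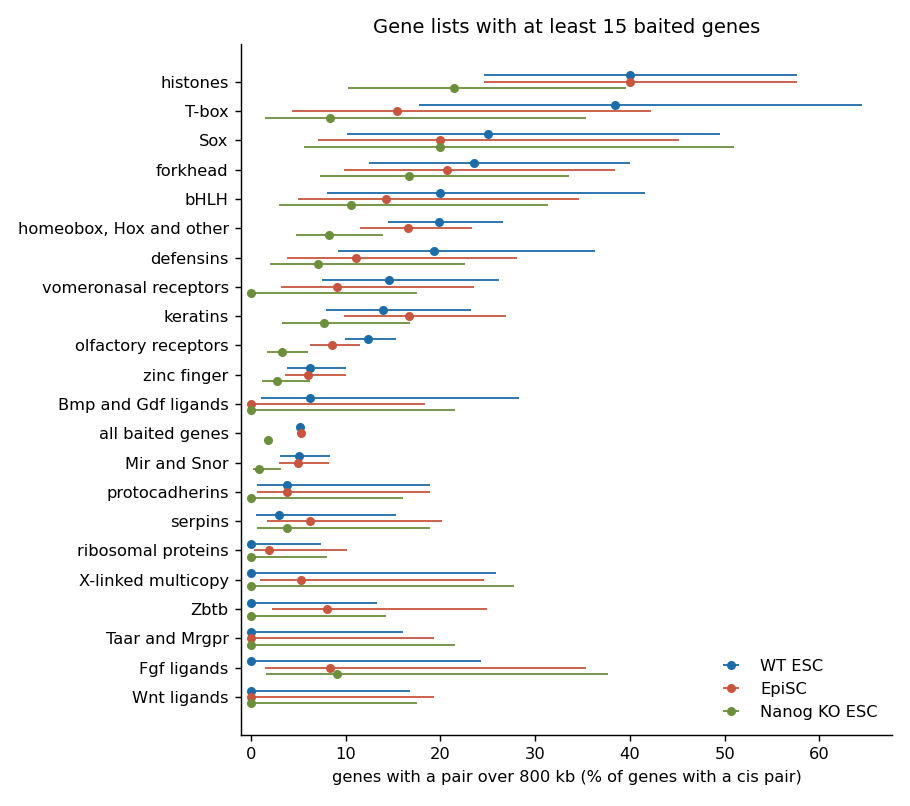
Share of genes with a pair over 800 kb among the genes of each list with a cis pair (%), for gene lists with at least 15 baited genes in each of the 3 states, with Wilson 95% intervals as bars. Histones stand at 40% in WT ESC and EpiSC and all baited genes at 5.19% and 5.28%.

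Further families were, by genes, close to all baited genes or had few or no long contacts. Zinc finger genes had 15 of 239 in WT ESCs (6.28%), 13 of 215 in EpiSCs (6.05%), and 5 of 181 in the Nanog-null line (2.76%), led by *Zfp184* with 18, 3, and 1, *Zfp787* with 6, 3, and 1, and *Zfp444* with 5, 4, and 0. By pairs, 44 of their 1369 cis pairs in WT ESCs were over 800 kb (3.21%, against 1.29% for all baited genes), and *Zfp184* alone held 18 of these 44. In EpiSCs the share was below that of all baited genes, with 17 of 1136 pairs, against 1.77%, and in the Nanog-null line it was 4 of 875 (0.457% against 0.371%). Genes of the Zbtb type had 0 of 25, 2 of 25, and 0 of 23, namely *Zbtb3* and *Zbtb41* in EpiSCs. Genes with symbols that begin with Mir or Snor had 14 of 275, 14 of 280, and 2 of 227, with *Mir196b* at 2, 4, and 0, *Mir28* at 0, 5, and 0, and *Mir690* at 4, 1, and 0. Small nucleolar RNA genes named in capitals, such as *SNORA17.260* with a long pair in all 3 lists, were left out of this count. Protocadherins, adhesion proteins of neurons, had 1 of 26, 1 of 26, and 0 of 20, the gene being *Pcdh20*. Serpins, protease inhibitors, had 1 of 33, 2 of 32, and 1 of 26, with *Serpinb6c* at 0, 1, and 1. Ribosomal protein genes had 0 of 48, 1 of 52, and 0 of 44, the gene being *Rpl37*. X-linked multicopy genes had 0 of 11, 1 of 19, and 0 of 10, the gene being *Magee1*. Among signaling ligands, Fgf genes had 0 of 12, 1 of 12, and 1 of 11, the gene being *Fgf12*, Bmp and Gdf genes had 1 of 16, 0 of 17, and 0 of 14, the gene being *Gdf6*, and Wnt genes had 0 of 19, 0 of 16, and 0 of 18. Trace amine and Mas-related receptors had 0 of 20, 0 of 16, and 0 of 14, the Psg and Ceacam genes 0 of 12, 0 of 11, and 0 of 11, and the only prolactin gene with a cis pair, in WT ESCs, had none over 800 kb. A count of 0 is limited by the number of genes, and for the Wnt ligands of WT ESCs the interval reaches 16.8%.

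The fragments themselves were checked against GRCm38, where all 3120 in the long pairs have HindIII sites at both ends. Unbaited ends mostly lay outside protein-coding genes by the GENCODE annotation, 471 of 796 in WT ESCs (59.2%), 626 of 1077 in EpiSCs (58.1%), and 116 of 188 in the Nanog-null line (61.7%). For pairs of 400 to 800 kb the shares were 49.2%, 50.4%, and 51.1%. Exons were overlapped by 21.0%, 17.2%, and 20.7% of the unbaited ends, and introns by 19.2%, 23.9%, and 16.5%. As the promoter comparison was void, CG was counted over whole fragments, a choice made after seeing the data. Baited fragments with a long pair had medians of 17.2, 18.7, and 20.0 CG per kb in WT ESCs, EpiSCs, and Nanog-null ESCs, against 16.4 for all baited fragments. Those with a homeobox gene reached 37.8, 35.6, and 37.6 CG per kb, while all 173 baited homeobox genes had a median of 31.5. Unbaited ends had 9.04, 8.64, and 10.6 CG per kb. High CG content was thus found at homeobox fragments as a whole, and more so at those with a long contact. For all baited fragments with a long pair the upper quartiles were 31.3, 32.8, and 35.1 CG per kb, against 25.4 for all baited fragments. The lower quartiles were 9.19, 10.7, and 11.5, against 10.3. Homeobox fragments without a long contact were not counted apart.

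Reads from near-identical sequences can be placed on the wrong copy, so each pair was searched for runs of 31 bases, outside repeat-masked sequence, that both its fragments hold. This was added after seeing the data. Such runs were found in 17 of the 2653 long pairs (0.641%, 0.400% to 1.02%) and in 15 of 14870 pairs of 400 to 800 kb (0.101%). They were commonest from 1500 to 2000 kb, with 11 of 240 pairs. Most of the 17 had a histone gene of chromosome 13 at 1 end or both. The pair of *Hist1h2bl* and *Hist1h2bf* shared 533 runs, the most of any, and had 3 reads in EpiSCs. That of *Hist1h4i* and *Hist1h2ae* shared 246 and had 9, 6, and 3 reads in WT ESCs, EpiSCs, and Nanog-null ESCs. The pair of *Mptx1* and *Mptx2* shared 38 runs, the longest identical stretch being 73 bases, but its unbaited neighbors in the list of shared pairs, 3 of which had 21 to 47 reads, shared none, nor did the pairs of *Defb15*, *Rimkla*, *Bbs4*, *Shh* with *Mnx1*, and *Pax9* with *Foxa1*. Of the 62 pairs over 5 Mb, 0 shared such a run outside masked sequence. With masked sequence included, several of them hold longer identical stretches, among them *U6.660* with *U2.22* (58 bases), *Hoxa11as* with *Vax2os1* (53), *U1.112* with *U2.22* (52), and the pair of *6030429G01Rik* (51). Unmasked shared sequence was therefore present in few of the long pairs as a whole, but in several of those between histone genes. The part of shared sequence, masked or not, in the reads was not tested.

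Genes linked by long contacts were less expressed, in the median, than all genes with a cis pair in the same list. In WT ESCs 716 of the 873 linked genes have an RPKM value, with a median of 0.656 RPKM against 4.07 for all. In Nanog-null ESCs 206 of 250 do, with a median of 0.784 against 5.02. In EpiSCs 689 of 844 do, with a median of 6.03 against 10.1. Under 1 RPKM were 378 linked genes in WT ESCs (52.8%, 49.1% to 56.4%), against 37.3% of all. In Nanog-null ESCs these were 109 (52.9%, 46.1% to 59.6%) against 33.8%, and in EpiSCs 263 (38.2%, 34.6% to 41.9%) against 32.5%. The gap in the share under 1 RPKM was thus smallest in EpiSCs, whose values are shifted up against WT ESCs by a median of 0.86 on the log2 scale. In WT ESCs the median was 1.21 RPKM for genes of pairs baited at both ends and 0.354 for genes of pairs baited at 1 end. In EpiSCs these medians were 8.66 and 3.52, and in Nanog-null ESCs 1.40 and 0.337. Linked homeobox genes had medians of 0.0667, 0.224, and 0.108 RPKM in WT ESCs, EpiSCs, and Nanog-null ESCs, and without them those of the linked genes were 0.895, 7.82, and 0.946.

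**Figure D5:**
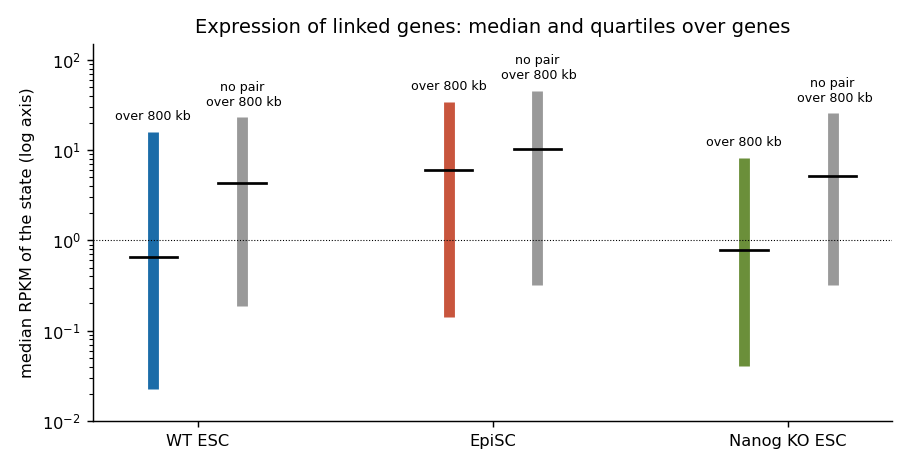
Median RPKM of each state (log axis) for genes linked by a pair over 800 kb (colored) and for genes with cis pairs of which none is over 800 kb (gray), the bars spanning the quartiles over genes, the short black lines the medians, and the dotted line 1 RPKM. The medians are 0.656 and 4.31 RPKM in WT ESC, 6.03 and 10.3 in EpiSC, and 0.784 and 5.13 in Nanog KO ESC.

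The expression values of the families differ widely. Linked olfactory and vomeronasal receptors and defensins had medians of 0 RPKM in each list that linked any. Linked zinc finger genes had medians of 7.46, 17.0, and 9.36 RPKM in WT ESCs, EpiSCs, and Nanog-null ESCs. Linked histone genes had 2.94, 0.913, and 2.13 RPKM, and since most of their transcripts end without a poly(A) tail while the labels describe mRNA libraries, these values may understate them. Reads of such near-identical genes may also be split between copies, as the counting of the reads is not described.

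For promoter-promoter contacts, both genes were under 1 RPKM in 95 of 264 long pairs with values in WT ESCs (36.0%, 30.4% to 41.9%), against 22.5% of those up to 800 kb. In Nanog-null ESCs it was 21 of 60 (35.0%, 24.2% to 47.6%) against 18.2%, and in EpiSCs 34 of 197 (17.3%, 12.6% to 23.1%) against 17.2%. Pairs of 400 to 800 kb already had 33.5%, 34.4%, and 24.3% in WT ESCs, Nanog-null ESCs, and EpiSCs. In both ESC lists the long promoter pairs thus joined silent genes about as often as those of 400 to 800 kb and more often than all shorter ones.

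The genes of the contacts with the most support varied in level. *Shh* is listed at 0 RPKM in WT ESCs, at 106 in EpiSCs, and at 0.0260 in Nanog-null ESCs, while its long pairs numbered 13, 18, and 4. Its partner *Mnx1* had 0.432, 3.63, and 0.458 RPKM. *Igfbp3* had 35.9, 546, and 20.2 RPKM with 17, 23, and 7 pairs, and *Igfbp1*, from the same region, 0, 0.0313, and 0. *Foxa1* had 0.330, 33.4, and 1.15 RPKM with 10, 2, and 1 pairs. *Abt1* had 51.7, 70.1, and 71.8 RPKM with 33, 21, and 7 pairs, and *Hoxa3* 0.0473, 0.190, and 0.296 with 1, 7, and 0. More pairs therefore went with a higher level in some of these genes and with a lower or equal one in others.

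Levels were compared between states by a fold rule, as log2 of RPKM plus 1, past a 2-fold difference. The EpiSC values were shifted up against WT ESCs by a median of 0.86 on the log2 scale and the Nanog-null values by 0.07, over genes at 1 RPKM or more in either state, and these shifts were subtracted. Of 1119 genes linked in the WT ESC or EpiSC list, 115 were higher in EpiSCs, beside 9.72% of all baited genes, and 128 were lower, beside 14.8%. Since the shift also pulls genes near 0 RPKM down, the count was repeated over the 686 at 1 RPKM or more in either state, where 115 were higher, beside 13.9%, and 95 lower, beside 15.5%. As shares, 16.8% and 13.8% of the latter lie near the background. Without the shift 301 genes would be higher and 49 lower, beside 30.1% and 5.78% of all baited genes, so that the higher genes make up 86.0% of those past the fold, against 47.3% with it. With a pseudocount of 0.1 RPKM 189 would be higher, beside 15.2%, and 188 lower, beside 20.0%. Of 777 genes linked in the WT or Nanog-null ESC list, 11 were higher in Nanog-null ESCs, beside 1.45%, and 14 lower, beside 1.63%. At 1 RPKM or more, over 396 genes, the same counts of 11 and 14 stand beside 2.23% and 2.49%. With a pseudocount of 0.1 RPKM the Nanog-null counts were 54, beside 4.76%, and 27, beside 4.10%, so that higher genes led here both among the linked and among all baited genes. There is no replicate check on any single gene.

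Genes linked in only 1 of the compared lists were counted by the same centred rule. Of 430 genes with values linked in WT ESCs and not in EpiSCs, 41 were higher in EpiSCs and 55 lower, and of 403 linked in EpiSCs and not in WT ESCs, 41 and 42, beside 9.72% and 14.8% of all baited genes. At 1 RPKM or more the shares were 17.4% and 14.9% for the first set and 14.7% and 12.5% for the second, beside 13.9% and 15.5%. The subtracted shift largely sets the balance of higher and lower genes here, so that no direction is read from these counts. Of 571 genes linked in WT ESCs and not in Nanog-null ESCs, 11 were higher in Nanog-null ESCs and 9 lower, and of 61 linked in Nanog-null ESCs and not in WT ESCs, 0 and 1. Over all 206 genes with values linked in Nanog-null ESCs, 0 were higher and 5 lower, beside 1.45% and 1.63% of all baited genes.

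The largest rises among linked genes in EpiSCs were those of *Shh*, of *Igfbp5*, a binding protein of insulin-like growth factors, from 0.673 to 120 RPKM with 3 pairs in WT ESCs and 6 in EpiSCs, and of *Tgfb2*, a growth factor, from 0.623 to 44.3 RPKM with 0 and 1. The largest falls were in the gene models *Gm10257*, from 141 to 0.236 RPKM, *Gm5611*, from 145 to 1.21, and *Gm6816*, from 54.7 to a listed 0, each with 1 long pair in EpiSCs. Of these gene models *Gm6816* also had 1 in WT ESCs and 1 in Nanog-null ESCs, and the others had 0 in both. In Nanog-null ESCs the largest rises were those of *Sox7*, an endodermal and vascular factor, from 0.127 to 9.18 RPKM, *Foxq1*, a forkhead factor, from 0.992 to 8.79, and *Clec4d*, a lectin receptor of myeloid cells, from 0.631 to 4.91. The largest falls there were those of *Aass*, an enzyme of lysine breakdown, from 39.3 to 7.71, *Ano9*, a membrane protein of the anoctamin family, from 33.9 to 8.66, and *Serpinb6c* from 22.5 to 5.65. Of all these genes with the largest rises and falls, only *Shh* and *Igfbp5* had 3 or more long pairs in any list.

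State markers were read from the same table. The 7 naive markers in it, led by *Klf2* in both ESC states and by *Klf5* in EpiSCs, summed to 909 RPKM in WT ESCs, 49.7 in EpiSCs, and 709 in the Nanog-null ESCs, and in EpiSCs *Nr0b1* is listed at 0. The 10 primed markers, led by *Lefty1*, summed to 724, 3164, and 707, and the 5 general pluripotency genes, led by *Pou5f1*, to 2509, 2276, and 2155. The naive sum was thus lowest and the primed sum highest in the state labelled EpiSC. Markers of other cells were present as well, and their sums are not corrected for the median upward shift of EpiSC values by 0.86 on the log2 scale. The 5 primitive endoderm markers summed to 4.47, 43.5, and 66.9 RPKM, with *Dab2*, *Sox17*, and *Gata4* the most abundant in WT ESCs, EpiSCs, and Nanog-null ESCs. *Gata4* had 1.29, 0.976, and 18.5 RPKM, *Gata6* 0.538, 8.17, and 16.4, *Sox17* 0.237, 12.6, and 5.93, *Pdgfra* 0.938, 10.1, and 9.20, and *Dab2* 1.47, 11.6, and 16.8. Each of the 5 was thus higher in Nanog-null than in WT ESCs, and each but *Gata4* was higher in EpiSCs than in WT ESCs. The 5 trophoblast markers summed to 106, 784, and 164, nearly all from *Krt8* and *Krt18*, with *Cdx2* at 0.466, 0.781, and 1.72 and *Elf5* at 0.0978, 0.0413, and 0.0659. The 3 neural markers summed to 90.4, 291, and 49.1, of which *Nes* had 11.8, 271, and 12.6 and *Tubb3* 77.1, 18.1, and 34.8. The 4 fibroblast markers summed to 43.9, 382, and 52.0, led by *Thy1* and in EpiSCs by *Col1a1*. Each fibroblast marker was highest in EpiSCs, while members of the trophoblast and neural lists differed in direction between EpiSCs and WT ESCs. Each primed marker was higher in EpiSCs than in WT ESCs before the shift was subtracted, but on the log2 scale of RPKM plus 1 the shift exceeds the rise of some of them, such as *Dnmt3b* and *Nodal*. Their part in the contacts and in the levels was not tested, and in bulk samples a change in the number of such cells and in their RNA cannot be told apart.

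Some of the markers held long contacts. *Klf4*, a naive factor, was joined to the fragment of *SNORA17.260* over 1.14 Mb in all 3 lists, with 14 reads in WT ESCs, 7 reads in EpiSCs, and 5 in the Nanog-null line, and had 1, 4, and 1 long pairs, at 93.0, 10.9, and 31.7 RPKM. *Tbx3* had 1, 1, and 2 pairs, and *Sox2* 3 in EpiSCs alone. *Utf1* had 1 in WT ESCs and *Pdgfra*, a growth factor receptor of primitive endoderm, 2 in EpiSCs. *Nanog* and *Pou5f1* had none in any list, and neither had any of the 10 primed markers.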

How the data were processed

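PCHi-C lists and RNA-seq medians of WT ESCs, EpiSCs, and Nanog-null ESCs were used. ChIP-seq samples were not analysed here. By the study's methods, reads were mapped and filtered with HiCUP (the submitters' processing notes name Bowtie 1.1.0 and GRCm38), scored with CHiCAGO, and combined over replicates. The counts of read pairs are those the authors deposited, whole numbers from replicates that the study describes as normalized and combined, and the score is the CHiCAGO score the authors deposited. The RPKM values are medians per group, which the authors made before they deposited them. For RNA-seq the notes name Trim Galore, TopHat, and DESeq2, and the counting is not given in the sources used here. The RNA column named BT12 was taken as the Nanog-null line. The authors' log2 fold changes and p-values between states, in the same table, were not used.

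Where the same 2 fragments were listed from either end, the entry of the higher score was kept. Read numbers differed between the entries of 29 of 7324 such pairs in WT ESCs, 13 of 5593 in EpiSCs, and 1217 of 7297 in the Nanog-null list, which bears on the reads given for that list, although only 3 of its pairs over 800 kb were affected. Fragments baited in any list were taken as baited. Gene names are those of the lists, and families were defined by symbol. RPKM was matched by symbol for 15284 of 18833 baited genes. Shares have Wilson 95% intervals, and no test was made because each state has 1 list. Named were the 5 baited fragments with the most long pairs per list, the 10 shared pairs with the highest lowest score, the pairs with most reads, highest score, and longest distance per list, the 3 highest-scoring pairs of a single list, up to 3 genes per family, the 3 largest rises and falls in RPKM per comparison, and the markers. Other names were chosen after their values were seen, and 2 genes that the rule names are not reported here. The members and lists were chosen with earlier results of these data known. Python 3.11.15, numpy 2.4.6, scipy 1.17.1, pandas 2.3.3, matplotlib 3.10.9, and pysam 0.24.0 were used, and the counting steps were tested on simulated data.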

Additional observations from a re-analysis of the deposited data

How the results depend on the processing

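Of the alternative values, 40 lay within the range set for the main ones and 29 outside it, the range being 1.5 times for counts and the 95% interval of the main value for shares and medians. The cause was not tested except where a stricter rule keeps fewer pairs. The order of the lists is WT ESC, EpiSC, and Nanog-null ESC. With a threshold of 1 Mb, 690, 800, and 139 pairs were left (0.692%, 0.920%, and 0.186% of cis pairs). At a score of at least 7, 511, 636, and 104 were left, which lowered the share to 0.316% in Nanog-null ESCs. The same score raised the share baited at both ends to 33.9% in WT ESCs, the shares in another list to 44.2%, 33.3%, and 78.8%, and those with a homeobox gene to 9.98%, 8.96%, and 16.3%. These shares were not counted for all cis pairs at that score. Whether the rise is particular to the long pairs is therefore not known. Without the 10 baited fragments with the most long pairs, the shares of cis pairs were 1.13%, 1.59%, and 0.293%, and the homeobox share in EpiSCs was 4.58%. Matching ends within 20 kb gave 59.0%, 56.3%, and 79.7% of the long pairs in another list, and the shorter pairs were not counted by this rule. The share of cis pairs was highest in EpiSCs and lowest in Nanog-null ESCs with the 1 Mb threshold, the stricter score, and the 10 fragments left out.

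With a pseudocount of 0.1 RPKM, 189 linked genes were higher (beside 15.2% of all baited genes) and 188 lower (beside 20.0%) in EpiSCs, against 115 and 128 in the main count, and 54 were higher (beside 4.76%) and 27 lower (beside 4.10%) in Nanog-null ESCs. Without centring, 301 were higher (beside 30.1%) and 49 lower (beside 5.78%) in EpiSCs. The median RPKM of linked genes ranged from 0.656 to 0.670 in WT ESCs, from 5.91 to 7.24 in EpiSCs, and from 0.706 to 0.814 in Nanog-null ESCs over the alternatives run. No paired analysis was possible because each state has 1 combined list and 1 median per gene. Low read numbers limit single contacts, and a pair missing from a list may have been missed for depth.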
